A study of Arabidopsis thaliana with 5 samples.

Results

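Cytokinins are adenine-derived hormones that promote cell division, and their level in a tissue is set by synthesis, activation and breakdown. Isopentenyltransferases of the adenylate type, such as *IPT4* and *IPT8*, carry out the first committed step by adding an isoprenoid side chain to adenine nucleotides. Cytokinin oxidases/dehydrogenases (CKX) remove that side chain and so end the activity of the hormone. In *Arabidopsis thaliana* seeds, *IPT4* and *IPT8* are known for expression in the chalazal endosperm, and *CKX2* is known as a target of the HAIKU pathway, in which the kinase IKU2, the VQ protein IKU1 and the WRKY transcription factor MINI3 promote endosperm growth.

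The 9 genes described here are *IPT4* (AT4G24650), *IPT8* (AT3G19160) and the CKX family, *CKX1* (AT2G41510), *CKX2* (AT2G19500), *CKX3* (AT5G56970), *CKX4* (AT4G29740), *CKX5* (AT1G75450), *CKX6* (AT3G63440) and *CKX7* (AT5G21482). They were chosen by gene identifier, as 9 of the 33602 genes in the expression table. RNA was sequenced from nuclei of the endosperm, collected 4 days after pollination (4 DAP), of 2 reciprocal crosses, named mother first, with 2 libraries of Col × Ler (replicates 2 and 3) and 3 libraries of Ler × Col (replicates 1, 2 and 3). Nuclei were purified by INTACT, in which a nuclear envelope tag (NTF) is biotinylated by the ligase BirA and pulled down with streptavidin beads, and both transgenes were driven by the promoter of *PHE1*, a gene of the endosperm. In Col × Ler, the mother was the transgenic Col line in a male-sterile *dde2* background and the pollen came from wild-type Ler. In Ler × Col, the mother was a *pistillata* (pi-1) mutant in Ler and the pollen came from the transgenic Col line. The crosses therefore differed in the mother's mutation and in the parent that gave the tag as well as in direction, and these cannot be told apart.

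Values were RPKM as deposited, that is read counts divided by gene length and by the depth of the library. The libraries held an estimated 12544671 to 28539345 reads, and the estimated reads per CKX or IPT gene ran from 30 to 1315 wherever the gene was not at 0. Replicate 2 of both crosses stood apart from the others: 26.8% (Col × Ler) and 22.5% (Ler × Col) of the 26712 protein-coding genes were at 0 there, against 0.348 to 4.01% in the other libraries. A 0 in those libraries is therefore given as listed at 0. Summed over 10 seed coat markers, the RPKM was 59.7 and 311 in replicates 2 and 3 of Col × Ler, and 205, 37.6 and 278 in replicates 1, 2 and 3 of Ler × Col, with *TT16* at 0 in replicate 2 of both crosses and *TT2* at 0 in replicate 2 of Col × Ler. Over 6 embryo markers, the sum was highest in replicate 1 of Ler × Col, at 90.3, and 1.55 to 19.4 elsewhere, with *PLT2* and *WUS* at 0 in replicate 2 of both crosses, *STM* at 0 in that of Col × Ler and *WOX2* at 0 in that of Ler × Col. Over 8 endosperm markers, the sum was 658 and 385 in replicates 2 and 3 of Col × Ler, and 554, 878 and 455 in replicates 1, 2 and 3 of Ler × Col. *ZOU* alone had 532 RPKM in replicate 2 of Col × Ler and 777 RPKM in that of Ler × Col. *PHE1* itself had 29.7 to 51.0 RPKM, so markers of the labelled tissue were detected in every library, with *IKU2* alone listed at 0, in Ler × Col replicate 2. Over 6 markers of the silique wall and other green tissue, the sum was 2079 and 4388 in Col × Ler and 2088, 645 and 3258 in Ler × Col, with none at 0. The study's methods state that the first replicates of both crosses were set aside for their estimated contamination, and elsewhere that all Ler × Col replicates were pooled. Ler × Col replicate 1 is kept here. The order of the CKX and IPT genes, the test between the crosses, the pathway median and the profile neighbours are also given without it. Means by cross and shares of genes whose crosses do not overlap are given only with it. The part of other seed tissues and of library quality in the values below was not tested, and in bulk nuclei fewer nuclei of a type and less RNA per nucleus cannot be told apart.

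*IPT4* had the highest mean of the 9 genes. It stood at 11.8 and 29.2 RPKM in replicates 2 and 3 of Col × Ler, and at 32.6, 2.62 and 35.3 RPKM in replicates 1, 2 and 3 of Ler × Col. It was low in replicate 2 of either cross and high in the other 3 libraries, so its lowest and highest values, 13.4-fold apart, both came from Ler × Col and the Col × Ler values lay between them. *IPT4* lay at percentiles 56.4 to 88.4 of protein-coding genes within a library. *IPT8* was lower than *IPT4* in 4 of 5 libraries, with 7.97 and 5.10 RPKM in Col × Ler and 19.4, 3.12 and 9.27 RPKM in Ler × Col. The ratio of *IPT4* to *IPT8* ranged from 0.840 in Ler × Col replicate 2 to 5.73 in Col × Ler replicate 3. *IPT8* was the higher of the 2 synthesis genes only in Ler × Col replicate 2, at an estimated 66 reads against 56.

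Among the CKX genes, *CKX6*, *CKX5* and *CKX2* had the highest means. *CKX5*, which acts with *CKX3* in reproductive meristems, had 5.96 and 16.1 RPKM in Col × Ler and 17.6, 2.06 and 12.5 RPKM in Ler × Col, low in both replicates 2. *CKX2*, whose product enters the secretory pathway, had 6.50 and 14.3 RPKM in Col × Ler and 6.31, 2.57 and 11.9 RPKM in Ler × Col. *CKX2* was thus highest in both replicates 3, and it was the only CKX gene whose level in Ler × Col replicate 1 was under that of both replicates 3. *CKX6* had 9.53 and 10.6 RPKM in Col × Ler and 25.6, 4.63 and 10.5 RPKM in Ler × Col, so that 3 of its 5 values lay within 9.53 to 10.6 RPKM. Its level is uncertain, since 91.5% of its exon bases (1836 bases) are also exon of AT3G63445, a long noncoding RNA gene on the opposite strand. AT3G63445 had 58.2 and 33.7 RPKM in Col × Ler and 49.3, 66.3 and 39.6 RPKM in Ler × Col, which was 1.92 to 14.3 times the *CKX6* value, and the sources used here do not say that reads were counted by strand.

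*CKX1* was the CKX gene with the other order of replicates. It had 5.36 and 1.42 RPKM in replicates 2 and 3 of Col × Ler, and 8.52, 6.06 and 1.28 RPKM in replicates 1, 2 and 3 of Ler × Col. It was low in both replicates 3, where *IPT4*, *CKX2* and *CKX5* were high. *CKX7*, which encodes the cytosolic enzyme of the family, had 2.07 and 7.20 RPKM in Col × Ler and 20.6, 0.719 and 2.79 RPKM in Ler × Col. *CKX3* was listed at 0 in replicate 2 of both crosses and had 0.919 RPKM in Col × Ler replicate 3 and 4.14 and 1.10 RPKM in Ler × Col replicates 1 and 3. *CKX4* was also listed at 0 in replicate 2 of both crosses, with 0.674 RPKM in Col × Ler replicate 3 and 10.6 and 0.629 RPKM in Ler × Col replicates 1 and 3. These last 3 genes had their highest value in Ler × Col replicate 1, and *CKX4* passed 1 RPKM there alone. *CKX1*, *CKX5*, *CKX6* and *IPT8* were also highest in that library, as were 46.9% of all genes tested.

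**Figure D1:**
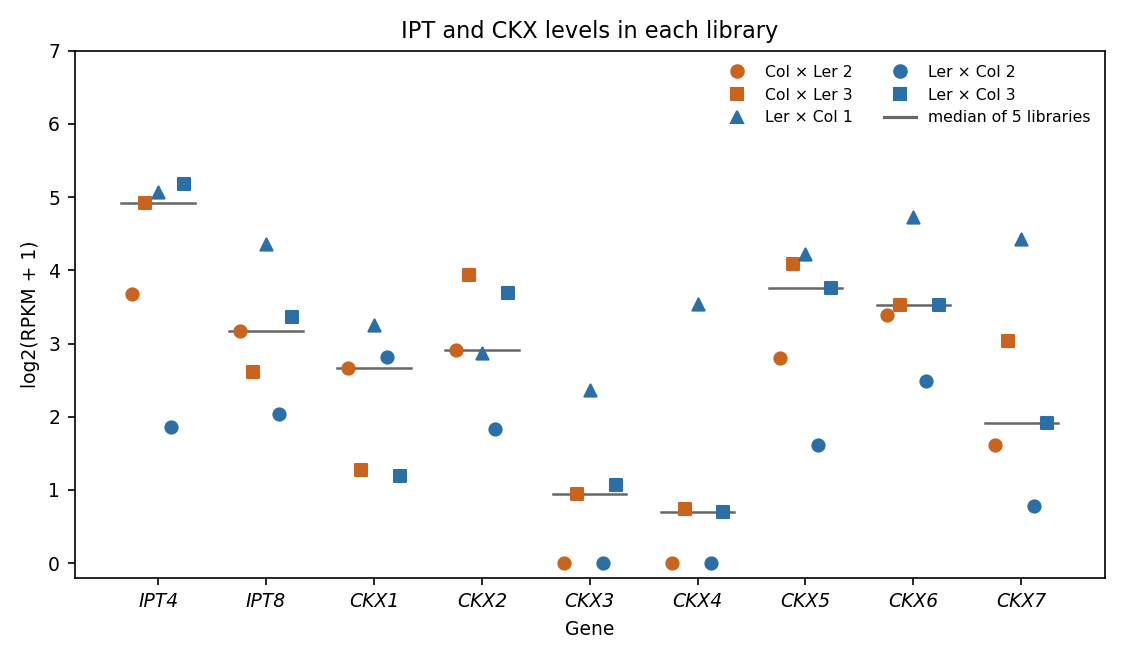
Levels of the 9 genes, as log2(RPKM + 1), in the 2 Col × Ler libraries (orange) and the 3 Ler × Col libraries (blue), with marker shape giving the replicate number and the grey line the median of the 5 libraries. The colours overlap for every gene, and *CKX1* is the only gene whose squares (replicate 3) both lie below its own other points.

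In all 5 libraries, 6 of the 9 genes (*IPT4*, *IPT8*, *CKX1*, *CKX2*, *CKX5* and *CKX6*) reached 1 RPKM, against 53.3% of all protein-coding genes. *CKX7* did so in 4 libraries, *CKX3* in 2 and *CKX4* in 1. Ordered by mean over the 5 libraries, *IPT4* (22.3 ± 14.3 RPKM, SD, n = 5) was followed by *CKX6* (12.2 ± 7.91), *CKX5* (10.9 ± 6.66), *IPT8* (8.98 ± 6.32), *CKX2* (8.32 ± 4.73), *CKX7* (6.67 ± 8.14) and *CKX1* (4.53 ± 3.13), with *CKX4* and *CKX3* last. The ranges of every pair of neighbours in this order overlapped. The gene of higher mean was also the higher one within a library in 4 of 5 libraries at most, and *CKX4* exceeded *CKX3* in Ler × Col replicate 1 only. Without that library the order was *IPT4*, *CKX5*, *CKX2*, *CKX6*, *IPT8*, *CKX1*, *CKX7*, *CKX3* and *CKX4*, and *IPT4* alone kept its place.

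The 250 bases before the annotated start were scanned in all 9 genes for motifs known for factors of these pathways. These were TTGAC, the core of the W-box bound by WRKY factors such as MINI3, and AGATT. The latter is a core bound by type-B response regulators, which act at the end of cytokinin signalling. Windows of 4 genes, picked for their unlike motif content, are given. Sequences are from RefSeq TAIR10.1, 5′ to 3′ on the strand of the gene, with matches to either motif on either strand in capitals (GTCAA and AATCT are the reverse complements). The windows are chr2:17314162-17314411 on the + strand for *CKX1*, chr2:8447356-8447605 on the - strand for *CKX2*, chr4:14565933-14566182 on the + strand for *CKX4* and chr4:12720144-12720393 on the + strand for *IPT4*.
CKX1: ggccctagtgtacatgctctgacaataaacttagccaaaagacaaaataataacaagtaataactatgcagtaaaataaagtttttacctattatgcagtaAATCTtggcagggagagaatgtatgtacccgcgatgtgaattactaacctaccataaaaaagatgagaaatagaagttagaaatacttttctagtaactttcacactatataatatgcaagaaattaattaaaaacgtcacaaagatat
CKX2: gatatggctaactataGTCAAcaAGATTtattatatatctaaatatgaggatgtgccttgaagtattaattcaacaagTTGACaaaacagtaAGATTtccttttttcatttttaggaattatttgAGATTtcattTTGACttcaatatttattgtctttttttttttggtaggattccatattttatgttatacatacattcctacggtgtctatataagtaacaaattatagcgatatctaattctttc
CKX4: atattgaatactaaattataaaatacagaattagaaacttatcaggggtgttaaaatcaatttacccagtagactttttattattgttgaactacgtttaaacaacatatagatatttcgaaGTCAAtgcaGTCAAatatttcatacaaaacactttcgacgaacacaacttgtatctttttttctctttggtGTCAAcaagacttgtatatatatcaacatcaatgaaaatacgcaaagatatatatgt
IPT4: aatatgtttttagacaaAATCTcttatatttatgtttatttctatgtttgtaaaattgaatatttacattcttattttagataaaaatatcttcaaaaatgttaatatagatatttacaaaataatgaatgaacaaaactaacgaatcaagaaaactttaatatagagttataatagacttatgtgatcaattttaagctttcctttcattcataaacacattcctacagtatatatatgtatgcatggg
The *CKX2* window held 3 matches to TTGAC, at 234, 172 and 115 bases before the start, and 3 matches to AGATT, at 227, 158 and 125 bases. Among the 27443 windows of this length before protein-coding genes, 3.38% held at least 3 TTGAC matches and 9.26% held at least 3 AGATT matches. The *CKX4* window also held 3 TTGAC matches, but no AGATT match. The *CKX1* and *IPT4* windows held no TTGAC match and 1 AGATT match each, where 44.9% and 63.7% of all windows held at least 1 match to TTGAC and AGATT. Of the windows not shown, that of *CKX7* also held 3 AGATT matches, with 1 TTGAC match. Those of *IPT8* and *CKX3* held 1 match to each motif, that of *CKX5* 1 TTGAC match and that of *CKX6* 2 AGATT matches. None of these matches overlapped a match to the other motif, and a match is a description of letters, not of a bound site.

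*CKX2* and *CKX4*, which shared the TTGAC count, had unlike levels: *CKX2* was at 2.57 to 14.3 RPKM over the 5 libraries and *CKX4* passed 1 RPKM in 1. For the HAIKU genes, *MINI3* had 1.69 and 25.7 RPKM in Col × Ler and 18.5, 6.73 and 20.8 RPKM in Ler × Col, and *IKU1* had 1.94 and 17.5 RPKM and 16.9, 3.84 and 18.6 RPKM. *IKU2* had 0.852 and 2.60 RPKM in Col × Ler and 15.8 and 2.15 RPKM in replicates 1 and 3 of Ler × Col, and was listed at 0 in replicate 2 of that cross. Like *CKX2*, all 3 were lower in replicate 2 than in replicate 3 of each cross, as were 69.5% of the 25579 genes tested.

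The summed level of the 7 CKX genes was 29.4 and 51.2 RPKM in Col × Ler and 93.5, 16.0 and 40.7 RPKM in Ler × Col. This sum includes *CKX6*, whose level is uncertain because of its overlap with AT3G63445. The summed level of *IPT4* and *IPT8* was 19.7 and 34.3 RPKM in Col × Ler and 52.1, 5.75 and 44.5 RPKM in Ler × Col. The ratio of the second sum to the first was 0.671 and 0.670 in Col × Ler, within the 0.557, 0.358 and 1.09 of Ler × Col. Both sums were lowest in Ler × Col replicate 2 and highest in Ler × Col replicate 1.

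The makeup of the CKX sum also changed between libraries. *CKX6* had the largest share in Col × Ler replicate 2 (32.4%) and Ler × Col replicate 1 (27.4%), *CKX5* in Col × Ler replicate 3 (31.4%) and Ler × Col replicate 3 (30.8%), and *CKX1* in Ler × Col replicate 2 (37.8%). All shares depend on the uncertain level of *CKX6*. *CKX1* made up 18.2% and 2.77% of the sum in replicates 2 and 3 of Col × Ler, and 9.12%, 37.8% and 3.15% in replicates 1, 2 and 3 of Ler × Col. In both replicates 3 the larger shares were those of *CKX2* and *CKX5*, and *CKX2* held 28.0% (Col × Ler) and 29.3% (Ler × Col). *CKX7* and *CKX4* held 22.0% and 11.4% in Ler × Col replicate 1, and at most 14.1% and 1.54% elsewhere.

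**Figure D2:**
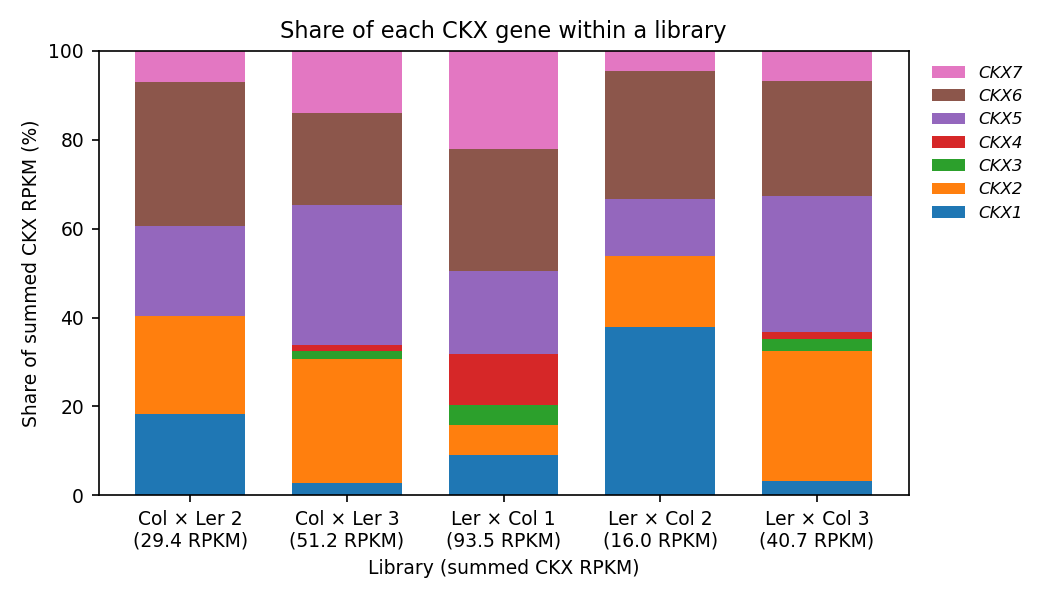
Share of each CKX gene in the summed CKX RPKM of each library, in percent, with the sum in RPKM under each bar. *CKX1* takes 18.2% and 37.8% in replicate 2 of Col × Ler and Ler × Col and 2.77% and 3.15% in replicate 3.

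The change from replicate 2 to replicate 3 was compared between the crosses, a description made after the values were seen. On the log2(RPKM + 1) scale, *CKX1* was lower in replicate 3 by 1.40 in Col × Ler and by 1.63 in Ler × Col, or 3.78-fold and 4.72-fold in RPKM. These differences lay at percentiles 3.05 and 1.22 of the 25579 genes tested, whose medians were 0.73 and 1.26 higher in replicate 3. *CKX1* was the only 1 of the 8 genes that passed the filter (2 or more libraries with 1 RPKM or more, which *CKX4* did not) to be lower in replicate 3 in both crosses, against 5.4% of all genes tested, and it was lower by more than 1 in both, against 1.41%. The order also held in rank, with *CKX1* at percentiles 53.8 and 72.4 of protein-coding genes in replicate 2 of Col × Ler and Ler × Col and at percentiles 21.3 and 26.6 in replicate 3.

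In both crosses, 6 of the 8 genes were higher in replicate 3, against 69.5% of all genes tested, a share near the background. *IPT4*, *CKX2*, *CKX5* and *CKX7* were higher by more than 1 in both, against 24.2%. *IPT4* differed by 1.24 in Col × Ler and 3.32 in Ler × Col, the latter at percentile 98.7 of all genes tested. *CKX5* differed by 1.29 and 2.15, and *CKX2* by 1.03 and 1.86. *CKX6* had the smallest difference in Col × Ler, at 0.14, and differed by 1.03 in Ler × Col. *IPT8* had opposite signs, at -0.56 in Col × Ler and 1.32 in Ler × Col. Of the seed coat markers 9 of 10, and of the silique wall and green tissue markers 6 of 6, were higher in replicate 3 in both crosses. Endosperm markers were split, with 4 of 8 (*FIS2*, *FWA*, *IKU2* and *MINI3*) higher and 3 (*PHE1*, *AGL62* and *ZOU*) lower in replicate 3 in both crosses. The part of these tissues in the differences was not tested.

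**Figure D3:**
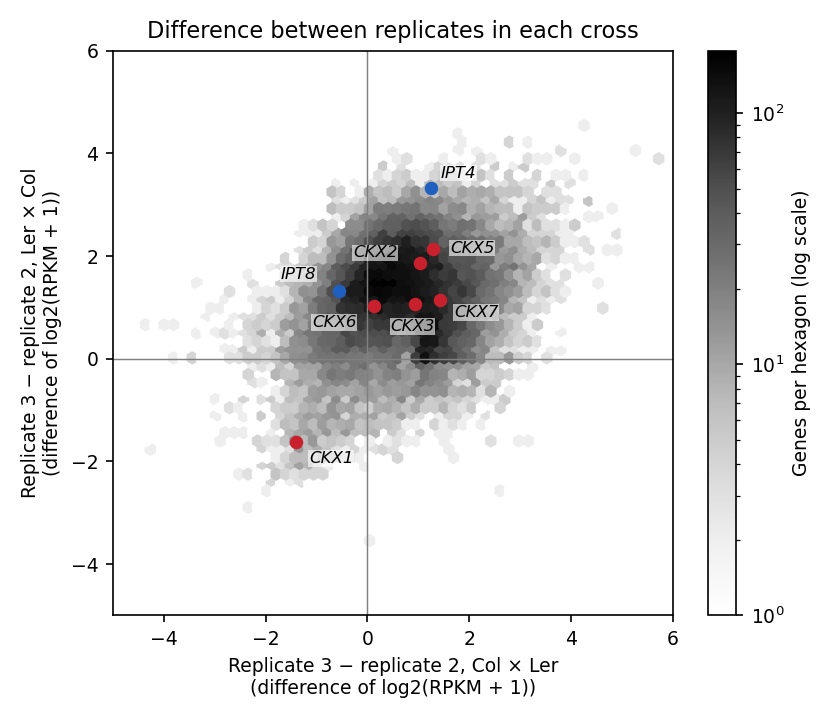
Replicate 3 minus replicate 2 on the log2(RPKM + 1) scale in Col × Ler (x axis) and Ler × Col (y axis), with all 25579 tested genes as grey hexagons shaded by the number of genes on a log scale, IPT genes in blue and CKX genes in red. *CKX1* lies in the lower left at -1.40 and -1.63, apart from the other 7 genes.

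Among the libraries used here, replicate 1 was from Ler × Col only. Of the 8 genes, 6 had their highest value there, against 46.9% of all genes tested, as did *CKX4*, in a library that the study's methods set aside. The exceptions were *IPT4*, highest in Ler × Col replicate 3, and *CKX2*, highest in Col × Ler replicate 3. In that library *CKX4* was 15.8 times, *CKX3* 3.77 times, *CKX7* 2.86 times and *CKX6* 2.42 times the highest of the other 4 libraries. The 6 embryo markers were all highest in the same library, and their part in these values was not tested.

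Between the crosses, no CKX or IPT gene passed the threshold of a test whose spread was shared among genes of similar level. With limma, 0 of the 8 genes passed an adjusted p of 0.05, against 0.00782% of all genes tested (2 of 25579, 0.00391% in each direction), and 0 of 8 passed an unadjusted p of 0.05, against 1.04% (266). Every gene had an adjusted p of 0.99997. For none of the 9 genes did all libraries of 1 cross lie above those of the other, against 6.17% of tested genes with Col × Ler higher and 1.92% with Ler × Col higher.

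The log2 fold change of Col × Ler over Ler × Col, on the log2(RPKM + 1) scale, was largest in size for *CKX3*, at -0.67 (SE 1.23, 95% interval -3.09 to 1.74). *CKX2* came next on the other side, at 0.62 (SE 1.09, 95% interval -1.52 to 2.77), from means of 10.4 ± 5.52 RPKM (SD, n = 2) and 6.93 ± 4.71 RPKM (SD, n = 3). *CKX1* was at -0.45 (SE 1.27, -2.94 to 2.04), the lower side of zero, with means of 3.39 ± 2.79 RPKM and 5.29 ± 3.68 RPKM. *IPT4* was at 0.26 (SE 0.87), with means of 20.5 ± 12.3 RPKM and 23.5 ± 18.1 RPKM, so that the log scale and the means gave opposite orders. *IPT8* was at -0.37 (SE 1.08), *CKX5* at 0.25 (SE 1.03), *CKX6* at -0.12 (SE 0.98) and *CKX7* at -0.05 (SE 1.25). The narrowest interval, that of *IPT4*, ran from -1.45 to 1.96, so differences of 2-fold in either direction lay within the interval of each of the 8 genes. The widths follow the trend over all genes at each level, not the replicates of the gene itself.

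**Figure D4:**
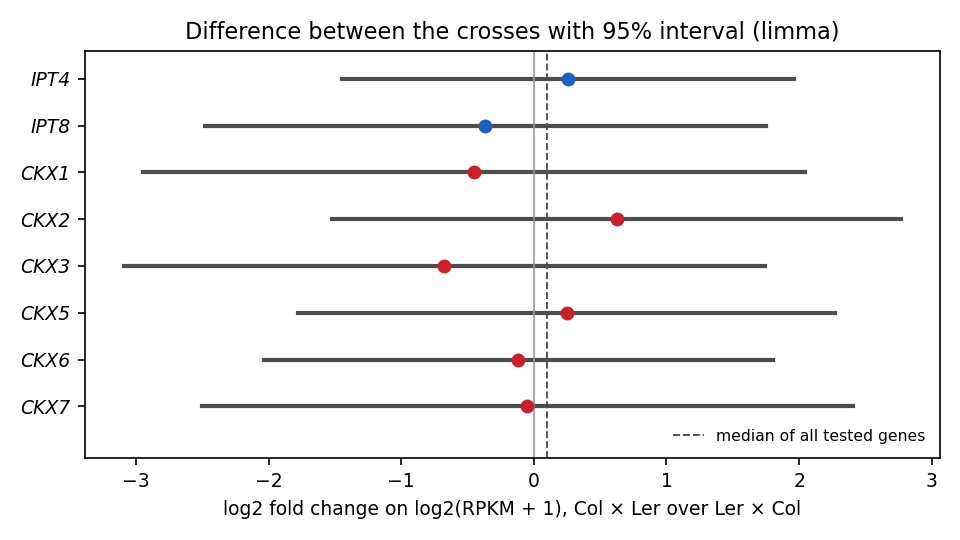
log2 fold change of Col × Ler over Ler × Col for the 8 tested genes (IPT in blue, CKX in red) with 95% intervals from limma, and the median of all 25579 tested genes as a dashed line. Every interval spans zero, and the median of the 8 genes (-0.08) lies near that of all genes (0.10).

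Taken number by number, the cross difference of the IPT genes depended on the replicate. *IPT4* was higher in Col × Ler by 1.82 in replicate 2 and lower by 0.26 in replicate 3, and *IPT8* was higher by 1.12 and then lower by 0.75. *CKX1* differed little in either, at -0.15 and 0.08, and *CKX7* was higher in Col × Ler in both, at 0.84 and 1.11. *CKX2* was at 1.07 and 0.25, *CKX5* at 1.19 and 0.33, *CKX6* at 0.90 and 0.01 and *CKX3* at 0 and -0.13. How many of all genes tested were higher in Col × Ler at both numbers was not counted. The numbers are those of the sample descriptions, and no source says that equal numbers were prepared together. Without Ler × Col replicate 1 the limma estimates of *CKX6*, *CKX7* and *IPT8* changed sign, to 0.46, 0.98 and 0.18, and those of *IPT4*, *CKX1*, *CKX2* and *CKX5* were 0.78, -0.04, 0.66 and 0.76, none of them past the threshold. *CKX3* did not pass the filter without that library. Over all genes tested in that fit, the median was 0.46, so genes in general leaned to Col × Ler there.

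The other steps of the pathway were read over 51 genes, of which 48 passed the filter. None of the 48 was called between the crosses in either direction, and 0 passed an unadjusted p of 0.05. Their median log2 fold change was -0.48 (range -1.49 to 1.43), beside 0.10 over all genes tested. Without Ler × Col replicate 1 that median turned to 0.23, over the 39 genes that then passed the filter, beside 0.46 over all genes. From replicate 2 to 3, 37 of 48 were higher in both crosses, against 69.5% of all genes tested, and 3 (*LOG4*, *ARR10* and *ARR11*) were lower in both, against 5.4%. The highest value was in Ler × Col replicate 1 for 36 of 48, against 46.9%.

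By role, the other adenylate-type synthesis genes were, unlike *IPT4*, highest in Ler × Col replicate 1 in 5 of 5 cases. *IPT3*, an isopentenyltransferase induced by nitrate, had 3.28 RPKM in Col × Ler replicate 3 and 29.8, 1.48 and 1.10 RPKM in Ler × Col, and was listed at 0 in Col × Ler replicate 2. *IPT5* was likewise listed at 0 in that library and had 3.43 RPKM in Col × Ler replicate 3 and 26.4, 0.749 and 1.40 RPKM in Ler × Col. *IPT2*, a tRNA-modifying enzyme and so a source of *cis*-zeatin, was steadier, at 11.0 and 14.5 RPKM in Col × Ler and 12.6, 5.31 and 14.0 RPKM in Ler × Col. *IPT9*, the other tRNA enzyme, ran from 1.37 to 12.8 RPKM. *CYP735A1*, which hydroxylates the side chain to give *trans*-zeatin forms, had 0.517 to 11.6 RPKM. *CYP735A2* was listed at 0 in replicate 2 of both crosses. It had 0.715 RPKM in Col × Ler replicate 3 and 9.06 and 0.626 RPKM in Ler × Col replicates 1 and 3.

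Among the LOG enzymes, which release the active base from the nucleotide, *LOG1* had 0.818 and 33.6 RPKM in Col × Ler and 19.3, 0.735 and 40.1 RPKM in Ler × Col, low in both replicates 2 as *IPT4* was. *LOG8* ranged from 3.99 to 24.0 RPKM. The receptors *AHK3* and *AHK4* reached 12.4 and 6.32 RPKM at most, both in Ler × Col replicate 1. The phosphotransfer proteins *AHP2* and *AHP5*, which carry the signal to the nucleus, had the highest means of the pathway genes named, at 27.1 to 114 RPKM and 18.8 to 99.4 RPKM. *AHP2* was highest in both replicates 3, and *AHP5* was highest in Col × Ler replicate 2.

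Of the type-B response regulators, *ARR20* ran from 0.0382 to 47.0 RPKM and *ARR1* from 1.80 to 31.7 RPKM, each highest in Ler × Col replicate 1. Both were picked by a mean that includes that library. *ARR19*, next by that mean, had 8.02 and 13.4 RPKM in Col × Ler and 9.41, 5.02 and 10.5 RPKM in Ler × Col. *ARR5* and *ARR6*, type-A regulators whose transcripts are induced by cytokinin, had 3.42 to 11.2 RPKM and 1.41 to 15.2 RPKM. The glucosyltransferases *UGT76C1* and *UGT76C2*, which inactivate cytokinin by N-glucosylation, had 29.4 and 29.8 RPKM in Ler × Col replicate 1 and at most 2.44 and 3.16 RPKM elsewhere. They thus shared with *CKX4* a single high library.

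**Figure D5:**
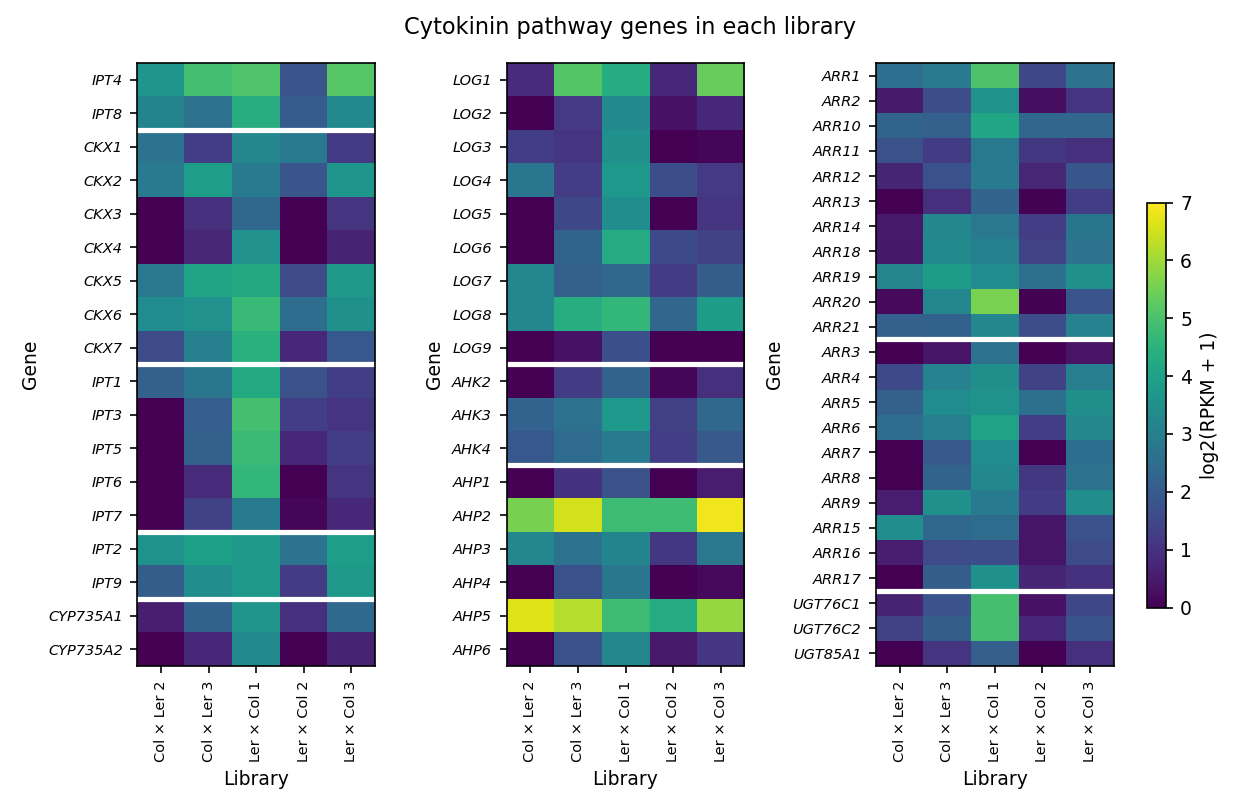
log2(RPKM + 1) of the 9 genes and the 51 other pathway genes (rows, grouped by role with white lines between groups) in the 5 libraries (columns), from dark (0) to yellow (7). The middle column of each block, Ler × Col replicate 1, is the brightest for 36 of the 48 other pathway genes that were tested.

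Genes with profiles like those of *IPT4*, *CKX6* and *CKX1* were ranked by the root mean square difference of log2(RPKM + 1) over the 5 libraries, after centring each gene on its mean, among 16329 genes with a mean of at least 5 RPKM. Nearest to *IPT4* were AT5G42670 (0.0705), AT1G71528, AT1G71530, *NAC083* (0.128) and AT5G02540 (0.134), where the median over all candidates was 0.911. Among the 8 genes that passed the filter, *CKX5* was the nearest to *IPT4* (0.372) and *CKX1* the farthest (1.81). Nearest to *CKX6* were AT3G56730 (0.00551), AT4G37480, *DRP3A* (0.0924), *KCS1* (0.0938) and AT5G25754, and the nearest of the 8 was *IPT8* (0.269). For *CKX1*, which was added after its values were seen, the nearest were AT5G48205 (0.201), *SAP* (0.215), *SPL12* (0.245), AT1G64800 and *MSH6* (0.266). Of the other 7 genes that passed the filter, the nearest to *CKX1* were *IPT8* at 0.980 and *CKX6* at 0.999. Without Ler × Col replicate 1, an alternative added after the values were seen, 2 of these 5 neighbours of *IPT4*, 1 of *CKX6* and 0 of *CKX1* stayed among the nearest 5.

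The gene models set how far each value can be assigned. *IPT4* is a single-exon gene at chr4:12720394-12721443 (+ strand, TAIR10.1) and *IPT8* lies at chr3:6621988-6623278 (- strand). *CKX1* lies at chr2:17314412-17317354 (+ strand), and 30.2% of its exon bases are also exon of AT2G41515 on the opposite strand, which was not analysed here. *CKX2* lies at chr2:8444204-8447355 (- strand), with 36.8% of its exon bases shared with AT2G00640 on the opposite strand, also not analysed here. *CKX5* lies at chr1:28314458-28318375 (- strand) and shares 12.7% of its exon bases with AT1G75440 on the opposite strand, which had 11.2 and 39.4 RPKM in Col × Ler and 19.2, 7.22 and 26.6 RPKM in Ler × Col. It also shares 8.91% with AT1G09553, a long noncoding RNA gene on the same strand, and 7.96% with AT1G09557 on the opposite strand. Neither of these was analysed here. *CKX6* lies at chr3:23424157-23426536 (+ strand), *CKX3* at chr5:23044839-23048292 (- strand), *CKX4* at chr4:14566183-14569380 (+ strand) and *CKX7* at chr5:7226606-7230304 (+ strand). *IPT4*, *IPT8*, *CKX3*, *CKX4* and *CKX7* overlapped no other annotated exon, and no stretch of 50 bases in the exons of any of the 9 genes occurred elsewhere in the genome.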

How the data were processed

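RPKM values were used as deposited, 1 column per library, and all columns were assigned. The authors' processing notes name TopHat2 2.1 and TAIR10. The counting tool, the gene lengths and the use of strand are not given in the sources used here. Replicate numbers follow the sample descriptions, while the titles number the Col × Ler libraries 1 and 2. According to the methods, first replicates started from more siliques and were left out downstream for estimated contamination. Ler × Col replicate 1 entered every mean, rank and test here unless stated otherwise.

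Genes with at least 1 RPKM in at least 2 libraries (25579) were tested between the crosses on log2(RPKM + 1) with limma 3.58.1 in R 4.3.3, with a mean-variance trend and Benjamini-Hochberg adjustment over all of them. A positive log2 fold change means higher in Col × Ler, and log2 values with a pseudocount understate changes of low genes. Depth was estimated from the smallest steps of tRNA gene RPKM (95% or more of values whole within 0.05), and reads per gene from exon lengths of RefSeq TAIR10.1, so both are approximate. In the main fit the variance of each gene was set by the trend over all genes at its level. SEs, intervals and p-values therefore measure that shared spread between these few libraries, not the spread of the gene's own replicates. Without the trend, each CKX and IPT gene tested had the same SE (1.06). Pathway genes were the 2 of highest mean in each list and HAIKU genes, and profile neighbours the 5 nearest to the IPT and the CKX gene of highest mean. The genes, lists and tests were chosen with earlier results of these data known. The script was tested on simulated data. Other pseudocounts, filters, scalings, a replicate block and the removal of each library were tried.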

Additional observations from a re-analysis of the deposited data

How the results depend on the processing

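No CKX or IPT gene passed the threshold under any alternative, with 0.949 the smallest adjusted p from limma. Over all genes, the number called between the crosses was 2 in the main test, 7 with a pseudocount of 0.1, 6 without the filter on low values, 6 with the filter applied in every library, 0 after quantile normalization, 0 without the trend, and 0 to 86 when 1 library was left out (0 without Col × Ler replicate 2, 8 without Col × Ler replicate 3, 0 without Ler × Col replicate 1, 21 without Ler × Col replicate 2 and 86 without Ler × Col replicate 3). The median log2 fold change of all genes was 0.10 in the main test and -0.34 to 0.46 when 1 library was left out, and that of the 8 genes -0.75 to 0.66. Signs turned after quantile normalization for *IPT4* (-0.19) and *CKX5* (-0.0054), where *CKX3* was at -0.18, and with a pseudocount of 0.1 for *CKX7* (0.12). When 1 library was left out, log2 fold changes ran from -0.83 to 0.88 for *IPT4*, -0.97 to 0.18 for *IPT8*, -1.15 to 0.25 for *CKX1*, 0.11 to 1.14 for *CKX2*, -1.25 to -0.20 for *CKX3* (which was not tested without Ler × Col replicate 1), -0.54 to 0.90 for *CKX5*, -0.66 to 0.46 for *CKX6* and -0.85 to 0.98 for *CKX7*. The cause of these changes was not tested.

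The crosses share only replicate numbers 2 and 3. The methods state that first replicates started from more siliques, but no source says whether equal numbers in the 2 crosses were prepared together. Across genes, the differences of replicate 3 from 2 in the 2 crosses had r = 0.29. With the replicate block by description number, 86 genes were called (77 higher in Col × Ler and 9 lower), with signs turned for *IPT8* (0.18), *CKX6* (0.46) and *CKX7* (0.98). Number 1 holds a single library there, so these estimates equal those without Ler × Col replicate 1 and are not a further result. With the numbers of the titles, 2 were called. Number 3 then holds only Ler × Col replicate 3, so the estimates equal those without that library.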
